A study of Homo sapiens with 4 samples.

Results

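The HOXA cluster genes of THP1 cells were followed along chromosome 7 after knockdown of the MLL-AF9 fusion. Probes of the array named for a numbered HOXA gene were taken and ordered by coordinate. Of 12 such probes for 10 genes considered here, 11 probes for 9 genes were analysed, of 26219 analysed probes in all. The genes were HOXA3, HOXA4, HOXA5, HOXA6, HOXA7, HOXA9, HOXA10, HOXA11 and HOXA13. HOXA9 and HOXA10 had 2 probes each and every other gene had 1.

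THP1 is an acute myeloid leukemia line of the M5 subtype that carries MLL-AF9. Cells of the MLL-AF9 knockdown group received siRNA-A or siRNA-B, which were designed against the junction of the fusion transcript, and cells of the control group received non-targeting control siRNA-1 or control siRNA-2. The sample labels number the knockdown siRNAs 3 and 4, and the series description gives siRNA 3 as siRNA-A and siRNA 4 as siRNA-B. All cells were transfected on days 0, 3 and 6, and RNA was harvested on day 8. Each of the 4 single-colour arrays held RNA pooled from 5 experiments, which gave 2 knockdown and 2 control arrays of 1 cell line. The arrays sat on 1 slide, with knockdown and control at different positions, so that treatment and position cannot be told apart. The spread between the 2 arrays of a group is the spread between pools that received different siRNAs. Differences in RNA per cell and in the share of expressing cells cannot be told apart in such bulk samples.

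HOX genes code for homeodomain transcription factors that set position along the body axis, and the genes of a cluster lie in the order in which they act along that axis. MLL and its fusion proteins bind at HOXA genes and keep them transcribed, and HOXA9 with its cofactor MEIS1 is known as a driver of self-renewal in MLL-rearranged leukemia. In normal myeloid cells the posterior HOXA genes are shut down during differentiation.

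The regions before the transcript starts of HOXA7, HOXA9 and HOXA11 are shown because these 3 genes had the most negative log2 fold changes described below. They are RefSeq sequences of GRCh38.p14, cover the 250 bases before the start, and lie on the minus strand, at chr7:27156676-27156925 for HOXA7, chr7:27165538-27165787 for HOXA9 and chr7:27185233-27185482 for HOXA11. Capitals mark CG dinucleotides.
HOXA7: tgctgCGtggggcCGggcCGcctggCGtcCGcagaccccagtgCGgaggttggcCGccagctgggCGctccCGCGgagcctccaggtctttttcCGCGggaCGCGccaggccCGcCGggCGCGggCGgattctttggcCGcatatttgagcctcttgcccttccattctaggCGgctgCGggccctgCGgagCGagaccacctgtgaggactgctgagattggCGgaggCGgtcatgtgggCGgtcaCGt
HOXA9: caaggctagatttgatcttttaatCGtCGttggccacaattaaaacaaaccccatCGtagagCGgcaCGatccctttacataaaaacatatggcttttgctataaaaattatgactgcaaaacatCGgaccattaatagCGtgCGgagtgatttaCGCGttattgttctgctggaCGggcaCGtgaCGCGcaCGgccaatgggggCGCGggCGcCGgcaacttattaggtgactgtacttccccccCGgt
HOXA11: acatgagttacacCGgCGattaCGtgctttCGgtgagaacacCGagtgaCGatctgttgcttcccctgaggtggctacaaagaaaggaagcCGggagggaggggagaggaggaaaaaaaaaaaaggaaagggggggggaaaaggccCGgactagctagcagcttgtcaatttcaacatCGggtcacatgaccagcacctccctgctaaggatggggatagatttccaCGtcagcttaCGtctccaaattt

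The HOXA7 region held 28 CG dinucleotides, the HOXA9 region 20 and the HOXA11 region 11. Of 35116 windows of the same length before RefSeq transcript starts, 15.9% held at least as many as HOXA7, 32.4% at least as many as HOXA9 and 50.3% at least as many as HOXA11, and the median of all windows was 11. The CG counts of these 3 regions therefore ran from the median of all promoters to well above it. The letters TGACAG, the binding core of MEIS proteins, were searched on both strands and occurred in 2 of the 16 windows of HOXA genes, those of HOXA2 and HOXA4, and in 13.0% of all windows. The letters TGATNNAT, a joint site of PBX and HOX proteins, occurred in 1 of the 16 windows, that of HOXA2, and in 6.47% of all windows. The start of HOXA11 lies at position 27185232 and that of its antisense transcript HOXA11-AS, read from the plus strand, at 27185408, with 175 bases between them, so that the printed HOXA11 region also spans the first bases of the antisense transcript.

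The fusion was checked first by the AF9 gene, MLLT3, whose 3′ part is in the fusion transcript. A probe in that part would read wild-type AF9 as well, so that the fusion alone was not measured. The MLLT3 probe A_23_P216693 had log2 intensities of 6.82 and 6.87 with siRNA-A and siRNA-B. With control siRNA-1 and control siRNA-2 it read 7.59 and 7.61, and it was called lower (log2 fold change −0.76, SE 0.11, limma adjusted p = 0.064). The other MLLT3 probe, A_24_P192627, was called lower too (log2 fold change −0.63, SE 0.12, limma adjusted p = 0.18). The median log2 intensity of the arrays was between 8.56 and 8.65, and 71.2% and 70.0% of spots were well above background with siRNA-A and siRNA-B, against 74.3% with either control. The part of this difference in the values of dim HOXA probes was not tested. Of 10 monocytic and myeloid marker genes, 8 were on the array and all 8 were well above background on every array, with CD33, CSF1R, ITGAM and SPI1 among them, and none was called. The log2 of their summed intensity was between 16.18 and 16.28 on the 4 arrays. Among markers of other lineages, the 4 T cell genes were well above background on all arrays, with a log2 of summed intensity between 8.21 and 8.33. So were 3 of 4 B cell genes, between 11.08 and 11.17, and 3 megakaryocyte genes, between 10.41 and 10.77. Of 2 erythroid genes 1, ALAS2, was well above background on all arrays, with a log2 intensity between 5.81 and 5.98. No epithelial marker was well above background on every array, and 1 of 3 fibroblast genes was, with a log2 intensity between 5.78 and 6.25. None of the markers was called with limma, beside 0.732% of all probes lower and 0.584% higher. At an unadjusted p under 0.05 there were 2, HBB (erythroid) and CDH1 (epithelial), beside 4.9% of all probes lower and 3.15% higher. Counted per probe, HBB was not well above background on any array of either group. For CDH1 this level was reached by 1 knockdown array and by 0 control arrays. The direction of HBB and CDH1 is therefore no support. The part of the markers in the HOXA values was not tested.

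Over the cluster, 2 of 11 HOXA probes were called lower, that is at an unadjusted limma p under 0.005, against 0.732% of all probes, and 0 were called higher, against 0.584%. The called probes were 1 of the 2 HOXA9 probes and the HOXA11 probe. At an unadjusted p under 0.05, 5 HOXA probes of 4 genes were lower, against 4.9% of all probes, and 0 were higher. No HOXA probe passed an adjusted p of 0.05, which 0.118% of all probes passed in either direction. The following counts leave out HOXA3, which was well above background in the control arrays alone. In 9 of the other 10 HOXA probes the 2 knockdown arrays were the lowest of the 4, against 22.5% of the 22794 probes well above background on all arrays and 21.4% of all analysed probes. The log2 fold change was below 0 in all 10, against 56.3% and 55.5%. The median log2 fold change over the 9 genes, each by its brightest probe, was −0.15, and −0.25 over the 8 genes without HOXA3, beside −0.02 over all 16305 genes with a symbol.

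**Figure D1:**
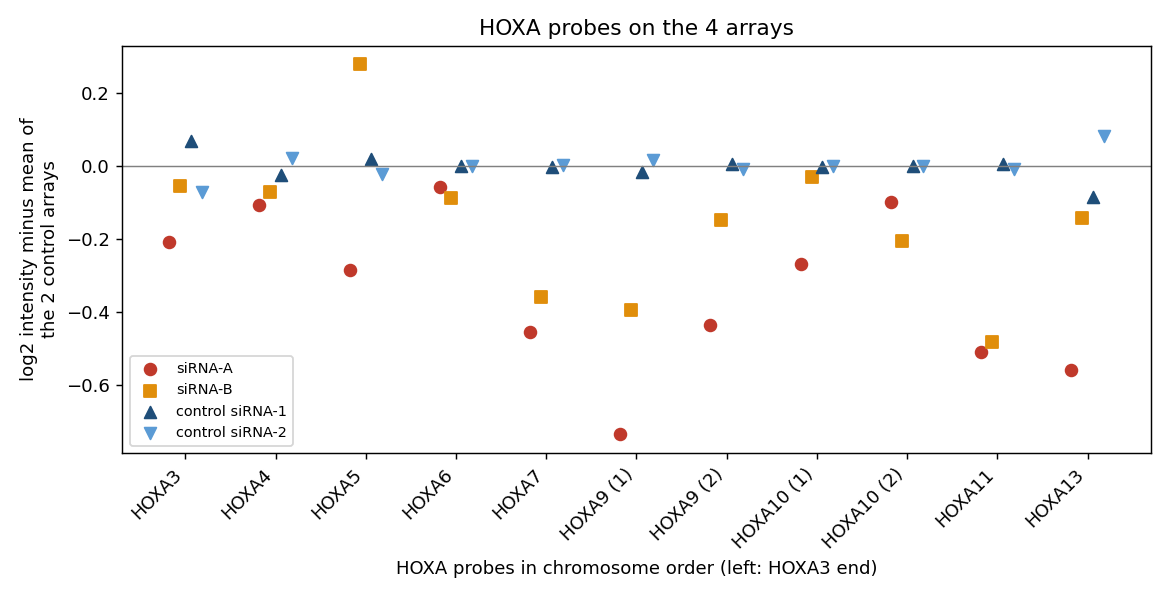
Log2 intensity of the 11 HOXA probes on each of the 4 arrays, minus the mean of the 2 control arrays, in chromosome order. Points are single arrays, and 9 probes have both knockdown arrays below both control arrays, the exceptions being HOXA3 and HOXA5.

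The anterior genes were dim. HOXA2, a gene of hindbrain patterning, had a quality weight of 0 on all 4 arrays and was left out, with intensities between 32 and 39. HOXA3 was the member just inside this limit, with intensities between 45 and 54.5, and with log2 intensities of 5.49 and 5.64 with siRNA-A and siRNA-B and of 5.77 and 5.63 with the controls. Its probe was well above background in both control arrays and not in the knockdown arrays, and spots well above background on no array were the ones left out (0 analysed spots were well above background on no array, and 0 left-out spots on any). HOXA3 thus entered through the control group, its direction is no support, and its log2 fold change is only a bound. The control mean of HOXA3, which patterns the neck and thymus, was at least 1.09-fold higher than the knockdown mean (log2 means 5.70 and 5.57), with overlapping arrays and a limma adjusted p of 0.84.

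HOXA4, a gene of the anterior body axis, had log2 intensities of 6.43 and 6.46 with siRNA-A and siRNA-B and of 6.51 and 6.55 with the controls. The groups did not overlap, but the difference was small and did not pass the test (log2 fold change −0.09, 95% confidence interval −0.34 to 0.16). On the background-subtracted signal scaled to the 75th percentile it was −0.22 and did not pass either (limma unadjusted p = 0.061).

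Among the middle genes HOXA5, HOXA6 and HOXA7, only HOXA7 came near the threshold. HOXA5 is a regulator of lung development and of myeloid differentiation. Its log2 intensity was 6.17 with siRNA-A, 6.73 with siRNA-B, 6.48 with control siRNA-1 and 6.43 with control siRNA-2. siRNA-A was thus below both controls and siRNA-B above both, and the mean log2 fold change of −0.003 had an interval from −0.40 to 0.39. The sign followed the array left out: the log2 fold change was −0.29 without siRNA-B and 0.28 without siRNA-A. The HOXA5 probe is the 60-base sequence below, at chr7:27181547-27181606 of hg19 on the minus strand. It is shown because it lies in the homeobox, the part that HOX genes share most closely, and cross-hybridisation of the probe was not tested.
HOXA5 probe: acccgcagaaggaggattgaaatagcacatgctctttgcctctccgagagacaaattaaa

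HOXA6 had log2 intensities of 5.64 and 5.61 with siRNA-A and siRNA-B and of 5.70 with either control. Its log2 fold change was −0.07 (95% confidence interval −0.32 to 0.17). The arrays did not overlap, but they differed by only 2 or 3 intensity units, between 49.0 and 52.0. On the background-subtracted signal scaled to the 75th percentile the log2 fold change was −0.19 (limma unadjusted p = 0.16).

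HOXA7 is a gene activated directly by MLL fusions. Its log2 intensity was 6.44 with siRNA-A, 6.54 with siRNA-B, 6.89 with control siRNA-1 and 6.90 with control siRNA-2. Both knockdown arrays were well below controls that were almost equal. The log2 fold change was −0.41 (95% confidence interval −0.66 to −0.16, limma unadjusted p = 0.0053, adjusted p = 0.38), which just missed the threshold. On the background-subtracted signal scaled to the 75th percentile the log2 fold change was −0.69 and passed it (unadjusted p = 0.0031).

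The posterior genes HOXA9, HOXA10, HOXA11 and HOXA13 were the bright ones, with mean log2 intensities between 9.56 and 11.76, against 5.63 to 6.69 for the others. All 6 of their probes had both knockdown arrays below both control arrays. Of the 5390 probes in the same intensity range 24.5% did, and their median log2 fold change was −0.03.

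HOXA9 was measured by 2 probes that start 557 bases apart. The probe A_23_P500998, at chr7:27202588-27202647 of hg19, had a log2 intensity of 11.14 with siRNA-A, 11.48 with siRNA-B, 11.86 with control siRNA-1 and 11.89 with control siRNA-2. This is 67.6% of the control level as a geometric mean (log2 fold change −0.56, 95% confidence interval −0.87 to −0.26, limma unadjusted p = 0.0027, adjusted p = 0.29). The other probe, A_33_P3416231, at chr7:27203145-27203204, read 9.27 and 9.55 with siRNA-A and siRNA-B and 9.71 and 9.70 with the controls. Its log2 fold change was −0.29 (95% confidence interval −0.58 to −0.00058, unadjusted p = 0.050 in limma), and it was not called. It was −0.15 without siRNA-A and −0.44 without siRNA-B. Both probes were lowest with siRNA-A and without overlap, and the difference between their log2 fold changes was not tested. Without siRNA-A the called probe fell short of the threshold (−0.39, limma unadjusted p = 0.018), as it did without control siRNA-1 (−0.58, unadjusted p = 0.043) and without control siRNA-2 (−0.55, unadjusted p = 0.051), while without siRNA-B it was called (−0.74, unadjusted p = 0.0027). On the background-subtracted signal scaled to the 75th percentile it was not called (−0.57, limma unadjusted p = 0.012).

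HOXA10, which like HOXA9 is active in myeloid progenitors, was also read by 2 probes. The probe A_24_P77904, at chr7:27211235-27211294, read 10.56 with siRNA-A, 10.80 with siRNA-B and 10.83 with either control. The probe A_33_P3288649 covers 1235 bases of the genome, chr7:27211789-27213023, with a sequence of 60 bases, and so reads a spliced transcript. It is shown for that reason.
HOXA10 probe: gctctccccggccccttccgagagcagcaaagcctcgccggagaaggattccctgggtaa

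On this probe the log2 intensities were 11.74 with siRNA-A, 11.63 with siRNA-B and 11.84 with either control. The order of the siRNAs was thus reversed between the HOXA10 probes, and neither probe overlapped. Both had a log2 fold change of −0.15, with 95% confidence intervals from −0.43 to 0.13 and from −0.40 to 0.10, and neither passed the test. The log2 fold change of A_24_P77904 was −0.03 without siRNA-A and −0.27 without siRNA-B. That of the spliced-transcript probe was −0.21 without siRNA-A and −0.10 without siRNA-B.

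HOXA11, a gene of limb and reproductive tract development, was the other called gene, and both siRNAs gave nearly the same level. Its probe, at chr7:27220776-27220835, read 9.52 with siRNA-A, 9.54 with siRNA-B, 10.03 with control siRNA-1 and 10.02 with control siRNA-2. The knockdown level was 71.0% of the control level (log2 fold change −0.50, 95% confidence interval −0.74 to −0.25, limma unadjusted p = 0.0015, adjusted p = 0.23). The call was lost when any 1 array was left out, with log2 fold changes between −0.51 and −0.48 and limma unadjusted p between 0.0081 and 0.019. On the background-subtracted signal scaled to the 75th percentile it was lost narrowly (−0.48, limma unadjusted p = 0.0052). With an array left out, the lone array of a group was assumed to vary like the other group.

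HOXA13, the last gene of the cluster and known for the distal limb, had intensities of 1308 with siRNA-A, 1744 with siRNA-B, 1817 with control siRNA-1 and 2041 with control siRNA-2. The groups did not overlap, but siRNA-B lay close to control siRNA-1. The log2 fold change was −0.35 (95% confidence interval −0.70 to −0.0037, limma unadjusted p = 0.048, adjusted p = 0.62). It was −0.14 without siRNA-A and −0.56 without siRNA-B.

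**Figure D2:**
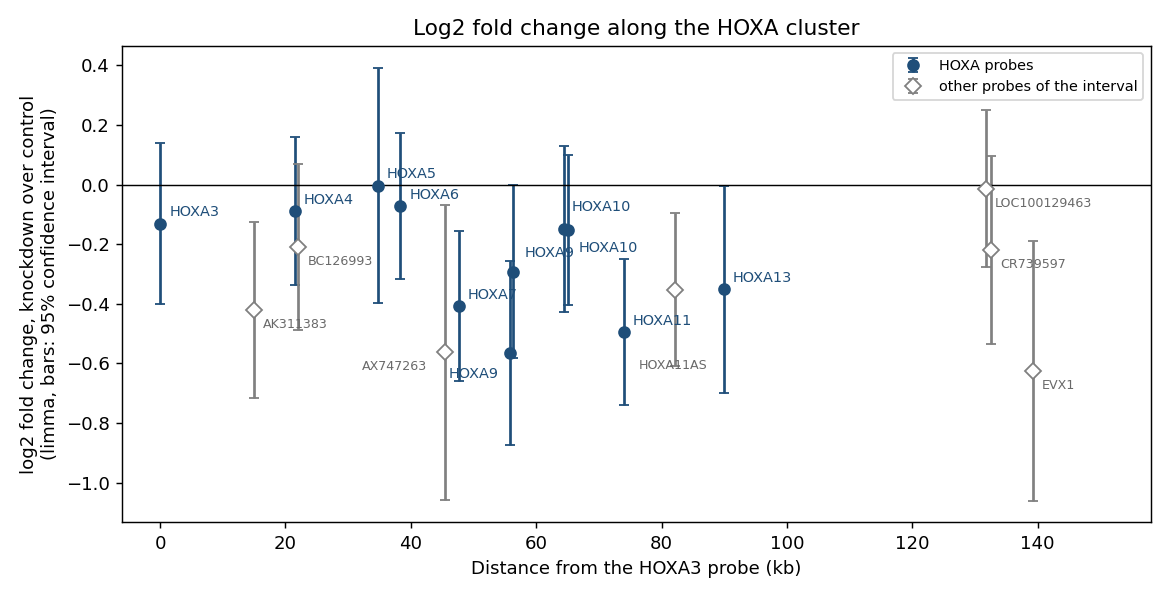
Log2 fold change of each HOXA probe (filled circles) and of the other probes in the interval (open diamonds) against distance from the HOXA3 probe in kb, with 95% confidence intervals of limma. Intervals of 5 HOXA probes lie below 0, all at or beyond HOXA7.

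Along the 90.0 kb between the first and last probe, the log2 fold change became more negative towards HOXA13 (Spearman's rho −0.61 over 11 probes, given as a description). The probes share the 4 arrays, and their intensity rose in the same direction (rho 0.78). The rho between position and log2 fold change turned positive, to 0.12, on the background-subtracted signal scaled to the 75th percentile. Over the 10 probes without HOXA3, rho was −0.55, and −0.13 on the background-subtracted signal. On that signal HOXA7 was at −0.69, HOXA9 at −0.57 and −0.23, HOXA11 at −0.48 and HOXA13 at −0.32. The order along the cluster thus depended on background subtraction.

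The arrays of the knockdown siRNAs were also set against the controls one by one. Of the 10 HOXA probes well above background on all arrays, siRNA-A was below both controls in 10, against 47.7% of all such probes, and siRNA-B in 9, against 33.4%. Over all 11 HOXA probes, HOXA3 among them, the median difference from the control mean was −0.29 with siRNA-A and −0.14 with siRNA-B, beside −0.05 and 0.01 over all probes. siRNA-A was below siRNA-B in 8 of these 10 probes, against 63.8% of all such probes, the exceptions being HOXA6 and the HOXA10 probe of the spliced transcript. The difference between siRNAs had a median size of 0.15 over the HOXA probes and 0.14 over all probes. The difference between the controls had a median size of 0.01 over the HOXA probes and 0.11 over all probes, and its largest value in the cluster was 0.17, in HOXA13. With 1 array for each siRNA, the difference between them has no replicate check.

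**Figure D3:**
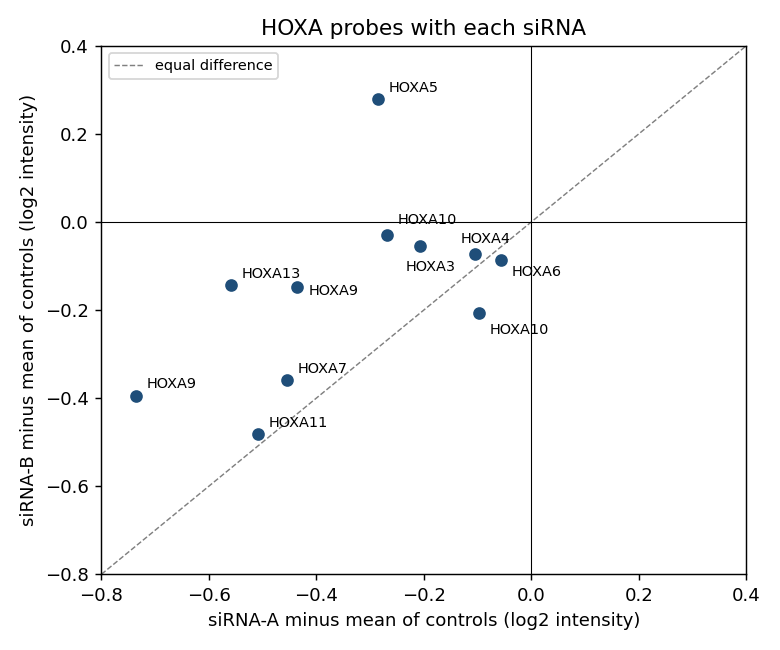
Difference of each HOXA probe from the mean of the controls with siRNA-A (horizontal) and with siRNA-B (vertical), in log2 intensity, with a dashed line where both are equal. HOXA11 and HOXA7 lie near the line, and HOXA5 is the 1 probe that lies above 0 with siRNA-B.

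Inside the cluster 4 analysed probes lay on the plus strand, opposite to the HOXA genes. None was called, beside 0.732% of all probes lower and 0.584% higher, and a count of 0 of 4 is near these shares. HOXA11AS, the antisense transcript of HOXA11, was the 1 probe among them well above background on every array. It read 11.25 with siRNA-A, 11.38 with siRNA-B, 11.70 with control siRNA-1 and 11.64 with control siRNA-2, at chr7:27228847-27228906 (log2 fold change −0.35, 95% confidence interval −0.61 to −0.10, limma unadjusted p = 0.013, adjusted p = 0.48). AK311383 was well above background in both controls and not in the knockdown arrays. Its log2 fold change was −0.42 (95% confidence interval −0.72 to −0.13, limma adjusted p = 0.46), which is no exact size at such dim values. BC126993 and AX747263 were well above background in 1 control array each and not in the knockdown arrays, and entered through that array. The direction of these 3 probes is therefore no support.

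EVX1, the homeobox gene next to HOXA13, had intensities of 1140 with siRNA-A, 727 with siRNA-B, 1449 with control siRNA-1 and 1360 with control siRNA-2. Here siRNA-B was the lower of the siRNAs, and the log2 fold change was −0.62 (95% confidence interval −1.06 to −0.19, limma unadjusted p = 0.010, adjusted p = 0.46). Without siRNA-A it was −0.95 and passed the threshold (limma unadjusted p = 0.0016), and without siRNA-B it was −0.30 (unadjusted p = 0.049). Between HOXA13 and EVX1 the probes of the transcripts LOC100129463 and CR739597 had log2 fold changes of −0.01 and −0.22, with overlapping groups, and neither was called. The other neighbours of the cluster, namely SNX10, SKAP2, HIBADH, TAX1BP1, JAZF1, CBX3, HNRNPA2B1 and NFE2L3, were read by 12 probes. None was called, and 1, a CBX3 probe at a log2 fold change of −0.36, had an unadjusted limma p under 0.05, beside 0.732% and 0.584% of all probes called lower and higher and 4.9% lower at a p under 0.05. Their median log2 fold change was −0.0032, with a range from −0.36 to 0.15.

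The 5 probes whose log2 intensities over the 4 arrays, centred on their mean, lay closest to those of the called HOXA9 probe were of RGS16, IKZF2, MYO6, AQP1 and STRA8. Their Euclidean distances were between 0.054 and 0.079 among 19254 probes compared, and their log2 fold changes between −0.60 and −0.51. The nearest HOXA probes were HOXA11 in rank 148 and HOXA7 in rank 149, followed by HOXA13 in rank 166. With 4 arrays these distances say little beyond the shared order of the arrays.

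The other HOX clusters lie on other chromosomes. Of 13 measured HOXB, HOXC and HOXD genes 1 was called lower and 0 higher, beside 0.732% and 0.584% of all probes, and the called gene was the 1 with an unadjusted limma p under 0.05, beside 4.9% lower and 3.15% higher. In 5 of the 13 both knockdown arrays were below both controls, beside 21.4% of all probes, and 1 of these, HOXB9, was well above background in the control arrays alone. The median log2 fold change was −0.09. The called gene was HOXC4, which read 6.86 and 7.14 with siRNA-A and siRNA-B and 7.77 and 7.76 with the controls (log2 fold change −0.76, limma adjusted p = 0.12). That call was lost without either control array at nearly the same log2 fold change (−0.76, limma unadjusted p = 0.014 without control siRNA-1 and −0.77, unadjusted p = 0.013 without control siRNA-2).

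The TALE proteins are the DNA-binding partners of HOX proteins. Of 9 TALE genes 7 were measured, with 1 called lower and 0 higher, beside the same 0.732% and 0.584%, and a median log2 fold change of −0.04. In 2 of the 7 both knockdown arrays were below both controls and in 3 above, beside 21.4% and 15.2% of all probes. At an unadjusted limma p under 0.05 PBX3 was lower and MEIS1 higher, beside 4.9% and 3.15% of all probes. PBX3, a partner of HOXA9, read 11.16 and 11.34 with siRNA-A and siRNA-B and 11.71 and 11.82 with the controls (log2 fold change −0.51, limma adjusted p = 0.26), and the call was lost when any 1 array was left out, with log2 fold changes between −0.60 and −0.42 and a limma unadjusted p between 0.0072 and 0.038. MEIS1 was dim, above background on 3 of 4 arrays (1 control array was not), with 5.78 and 5.73 against 5.58 and 5.29, and was not called at a log2 fold change of 0.32 (limma unadjusted p = 0.038, adjusted p = 0.60).

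Among 19 activators of HOXA transcription, the 1 gene called lower was MLLT3, given above, and 0 were called higher, beside 0.732% and 0.584% of all probes, with a median log2 fold change of −0.07. At an unadjusted limma p under 0.05 there were 5 genes, beside 4.9% of all probes lower and 3.15% higher, of which MLLT3, AFF1, AFF4 and the brightest of 4 MLL probes were lower and ELL2 was higher (log2 fold change 0.35, unadjusted p = 0.017, adjusted p = 0.51). The brightest MLL probe, at chr11:118348856-118348915 of hg19, was at −0.41 (limma unadjusted p = 0.0059, adjusted p = 0.40). The other MLL probes lay at higher coordinates, from 118361998 on, and were at −0.08, 0.05 and −0.03 and did not pass. Which MLL probes read the fusion transcript and which only wild-type MLL was not tested. This list holds MEN1, DOT1L and subunits of the MLL and elongation complexes. Of 12 polycomb genes, which repress HOX clusters, 0 were called with limma, beside 0.732% of all probes lower and 0.584% higher, and 0 had an unadjusted p under 0.05, with a median log2 fold change of −0.07. A count of 0 of 12 is near these shares.

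Of 14 genes known to be regulated by HOXA9 or HOXA10, 13 were measured, with 1 called lower and 0 higher, beside 0.732% and 0.584% of all probes, and a median log2 fold change of −0.02. Both knockdown arrays were below both controls in 1 of the 13 and above in 2, beside 21.4% and 15.2% of all probes. An unadjusted limma p under 0.05 was reached by 2 genes, beside 4.9% of all probes lower and 3.15% higher. SOX4, a transcription factor of progenitors, read 7.64 and 8.02 with siRNA-A and siRNA-B and 8.75 and 8.59 with the controls (log2 fold change −0.84, limma adjusted p = 0.13). Leaving out single arrays ended its call in 3 of 4 cases, with the log2 fold change between −1.03 and −0.65. These arrays were siRNA-A (limma unadjusted p = 0.0087), control siRNA-1 (unadjusted p = 0.023) and control siRNA-2 (unadjusted p = 0.012). The other gene under an unadjusted p of 0.05 was CYBB, a subunit of the phagocyte oxidase, which read 11.20 and 11.48 with siRNA-A and siRNA-B and 11.09 and 10.79 with the controls (log2 fold change 0.40, limma adjusted p = 0.55) and was not called. On the background-subtracted signal scaled to the 75th percentile PBX3 and SOX4 fell short of the threshold as well, with log2 fold changes of −0.50 and −0.93 (limma unadjusted p = 0.0065 and unadjusted p = 0.0059).

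**Figure D4:**
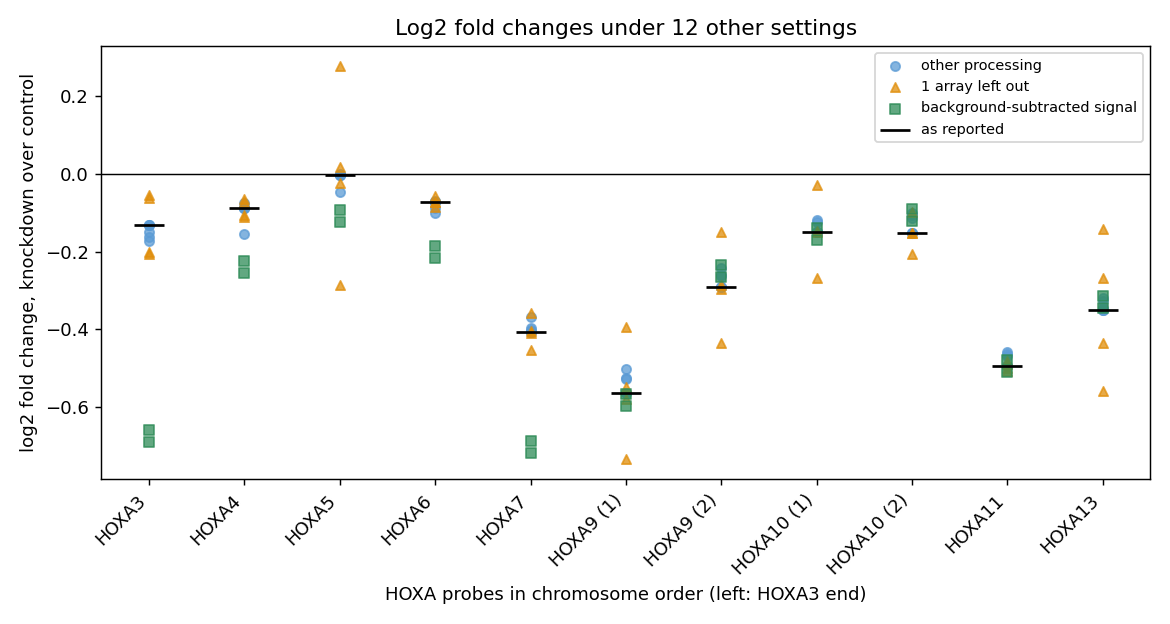
Log2 fold change of each HOXA probe as reported (black bars) and under 12 other settings, 1 point each, in chromosome order. All settings stay below 0 except for HOXA5, and the background-subtracted signal (squares) moves HOXA3 and HOXA7 the most. The direction of HOXA3 is no support.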

How the data were processed

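Expression was measured in 4 pooled RNA samples of THP1 cells on Agilent arrays. The authors extracted spots with Agilent Feature Extraction 10.5.1.1 per the labels and deposited an intensity per spot, equal to the median pixel signal in 100% of spots, without background correction or normalization between arrays. They also deposited a quality score, the weight of a spot, which was used as fit weight. How weights were set is not given in the sources used here. Probe coordinates are of hg19. Of 61 scanner columns 48 were not used.

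Spots with a weight above 0 on all arrays were kept, identical spots averaged, and log2 intensities fitted with limma 3.58.1 in R 4.3.3 without covariates. A probe was called at an unadjusted two-sided p under 0.005, the threshold of the study's methods for single spots. Adjusted p are Benjamini-Hochberg values over 26219 probes. An exact permutation test of 2 against 2 arrays cannot go below p = 0.333. The script was tested on simulated data. Named were all HOXA probes, other probes within 50 kb, fixed neighbour genes, the 5 probes most like the called HOXA9 probe, and called or textbook members of the gene lists. A gene of a list is given by its brightest probe. Some items of these lists are not reported here, and counts are of the genes reported. The members and gene lists were chosen with earlier results of these data known. Alternatives were 12 settings of scaling, background, weights, filter, variance model and left-out arrays. Figures were drawn with matplotlib.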

Additional observations from a re-analysis of the deposited data

Results flagged for a closer look

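HOXA5 was singled out because the knockdown siRNAs moved it in opposite directions. Its log2 intensity was below both controls with siRNA-A and above both with siRNA-B, and siRNA-B minus siRNA-A was 0.56 (6.73 against 6.17). This difference was not tested, since each siRNA had 1 array. Over all probes, 18% showed siRNAs beyond both controls in opposite directions, and among the HOXA probes 1 of 11 did.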

How the results depend on the processing

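Against 2 called HOXA probes in the reported setting, 1 (HOXA7) was called on the background-subtracted signal scaled to the 75th percentile, 5 at an unadjusted p under 0.05 and 0 at a Benjamini-Hochberg adjusted p under 0.05 with limma. On the unscaled background-subtracted signal 2 were called, HOXA3 and HOXA7. The count was 3 with quantile, cyclic loess or normexp and quantile normalization, with the filter on dim probes and with an intensity trend in the variance model. Leaving out single arrays gave between 0 and 1 calls. The median log2 fold change over the 9 genes was −0.32 on the scaled and −0.35 on the unscaled background-subtracted signal, and between −0.29 (without siRNA-B) and −0.14 (without siRNA-A) with single arrays left out. The number of genes with a log2 fold change below 0 was 9, and it was 8 where HOXA5 turned positive. HOXA5 was then at 0.0010 (quantile normalization), at 0.28 (siRNA-A array left out) and at 0.018 (array of control siRNA-1 left out). The counts of genes hold HOXA3, whose direction is no support. Of all probes 55.5% were below 0 in the reported setting. HOXA5 was the 1 HOXA probe that changed direction in any of the 12 settings. HOXA7 passed the threshold in 7 of the 12 settings. The HOXA3 probe did so in 1, on the unscaled background-subtracted signal (−0.69). It had entered through the control group, so that this is no support and the value is no exact size. HOXA11 fell short of the threshold in 6 settings and HOXA9 in 5, among them both settings of the background-subtracted signal. The cause was not tested. After seeing the data, the settings were also run for probes of AK311383, AX747263, HOXA11AS, HOXC4, MLLT3 (A_23_P216693), PBX3, SOX4 and EVX1. None of these changed direction. AK311383 and AX747263 had entered through control arrays alone, so that their direction is no support. EVX1 was at −0.95 in the setting without the siRNA-A array, and AX747263 was at −0.95 in that without the control siRNA-2 array. For AX747263 this setting kept only the brighter of its control arrays, so that the value is no support. AX747263 could not be fitted after the filter on dim probes. No paired analysis was possible, since each array pooled 5 experiments and the replicate numbers of the arrays are the siRNA numbers. With probes well above background on all 4 arrays alone, an alternative added after seeing the data, 2 of 10 HOXA probes were called and 8 of 8 genes had a log2 fold change below 0. The number of arrays limits the precision.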
